A study of Homo sapiens with 23 samples.

Results

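The condensin subunits *SMC2*, *SMC4*, *NCAPD2*, *NCAPG*, *NCAPH*, *NCAPD3*, *NCAPG2* and *NCAPH2*, together with *TOP2A* and *MKI67*, were followed in A549 cells depleted of THUMPD3. These 10 genes were chosen by name for their place in the mitotic chromosome, with earlier results of these data known. All 10 were found in both gene tables, which list 61806 and 42901 genes. Their RNA was below the control mean in each of the 4 comparisons, at the median by the most with the siRNA and by the least with shD3 #4, 1 of the shRNAs.

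Condensins are ring-shaped complexes that loop and compact chromatin as a cell enters mitosis. Condensin I and condensin II share the ATPase pair SMC2 and SMC4 and differ in their kleisin and HEAT-repeat subunits. Condensin II is nuclear throughout the cell cycle, whereas condensin I reaches the chromosomes after the nuclear envelope breaks down. Topoisomerase II alpha, the product of *TOP2A*, untangles sister DNA strands, and Ki-67, the product of *MKI67*, coats mitotic chromosomes and is a widely used mark of proliferating cells.

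A549 is an established human lung adenocarcinoma cell line. THUMPD3 is a tRNA methyltransferase, and the study asked what its loss does to growth and migration of these cells. After removal of ribosomal RNA, total RNA was sequenced in 23 libraries. The first 17 hold an siRNA knockdown (siD3 #3, 3 libraries) with siControl (2 libraries), and 2 knockdowns by doxycycline-inducible lentiviral shRNAs (shD3 #1 and shD3 #4) with sh1Control and sh4Control (3 libraries each). The other 6 are a deeper set of shD3 #1 and sh1Control, called deep here, with 3 libraries each. The siRNA cells were harvested on day 5 and the first shRNA cells on day 6, and no day is given for the deep set. The shRNA cells were puromycin-selected pools, whereas the siRNA was transfected transiently. The labels do not say whether the shRNA controls were the same pools without induction. The paper's methods compare untreated with treated samples within each knockdown type. If the untreated shRNA samples had no doxycycline, the drug and the knockdown cannot be told apart in the shRNA comparisons. The labels name the libraries of a group as biological replicates.

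The target gene *THUMPD3* was lower in all knockdown libraries than in their controls. Levels are given as cpm, the TMM-normalised read count scaled to a common library size. In sh1Control they were 61.8, 59.6 and 62.5 cpm, against 30.9, 30.5 and 32.9 cpm in shD3 #1. For sh4Control they were 66.0, 65.0 and 58.6 cpm, against 20.2, 20.1 and 19.2 cpm in shD3 #4. With siControl they were 65.7 and 68.5 cpm, against 11.6, 12.4 and 10.5 cpm in siD3 #3. The groups were thus apart in all 3, with log2 fold changes of -0.97 ± 0.07, -1.67 ± 0.07 and -2.54 ± 0.10 (standard error), and the deep set kept 49.6% of its control mean. By exact permutation, two-sided, p was 0.1 in each shRNA comparison and 0.2 for the siRNA. The two-sided p doubles the one-sided p, and these are the smallest values it can take at these group sizes. Epithelial marker RNA summed to between 2475 and 5771 cpm of the raw total in the first 17 libraries (5 of 5 markers above 1 cpm in at least 1 library). The 3 immune and 3 endothelial markers summed to at most 4.66 and 1.45 cpm there, and *CD3E* was at 0. The 4 fibroblast and 3 alveolar type 2 markers summed to at most 12.8 and 2.86 cpm. Total counts ran from 9854294 to 22101059 in the first libraries and from 27285889 to 59974740 in the deep ones. The siD3 #3 replicate 3 stood apart from its group, with a chi-square per degree of freedom of 30.5 and 33.9 against the other two, which differed from each other by 3.70. Its values are given with and without it below.

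In the 8 control libraries of the first set, the level per kilobase of annotated exon spanned a wide range among the 10 genes. *TOP2A* was the highest, with a median of 166 cpm per kb (range 148 to 172). *SMC4* followed at 42.0 (30.4 to 44), *MKI67* at 40.8 (20.6 to 46.9) and *NCAPD2* at 31.3 cpm per kb (27.8 to 32.8), and the ranges of these 3 overlapped. *NCAPG* at 21.5 (18.6 to 22.4) and *SMC2* at 20.7 cpm per kb (16.1 to 22.2) overlapped as well. The wide range of *MKI67* also overlapped those of *NCAPG* and *SMC2*. Its mean was 23.3 cpm per kb in siControl, 44.9 in sh1Control and 39.9 in sh4Control. *NCAPG2* stood at 12.3 (10.0 to 13.6) and *NCAPH* at 7.77 cpm per kb (7.14 to 8.44), each apart from its neighbours. The lowest were *NCAPH2* at 5.72 (4.56 to 6.43) and *NCAPD3* at 4.49 cpm per kb (3.77 to 4.72), whose ranges met. Exon lengths are unions over all annotated transcripts, which for *NCAPD3* came to 18698 bases, so that its level per kilobase rests on the longest denominator.

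In siD3 #3, all 10 genes were called lower, and 9.42% of the 17032 genes tested were. For a call, the p-value adjusted over all genes tested by Benjamini and Hochberg had to be under 0.05 and the change at least 1.5-fold. In shD3 #1, 9 of the 10 were called lower, with *NCAPH2* the exception, against 14.6% of 16456 genes. In deep shD3 #1 the number was 5 of 10 (*SMC2*, *NCAPH*, *NCAPG2*, *TOP2A* and *MKI67*), against 14.1% of 18763 genes. In shD3 #4 it was 1 of 10 (*NCAPH2*), against 4.49% of 16493 genes. No member was called higher in any comparison.

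By the adjusted p-value alone, the counts were 10 of 10 in shD3 #1 (27.8% of all genes were lower by that measure), 10 of 10 in shD3 #4 (20.8%), 10 of 10 in siD3 #3 (16.4%) and 9 of 10 in deep shD3 #1 (31.5%). Every knockdown library lay below every control library for 9 genes in shD3 #1 (31.2% of all genes), 9 in shD3 #4 (24.7%), 10 in siD3 #3 (29.5%) and 9 in deep shD3 #1 (34.0%). The counts by adjusted p-value alone rest in part on values near 0.05. In shD3 #1, *NCAPH2* (adjusted p = 0.0404) was lost under DESeq2 (0.135), without sh1Control replicate 3 (0.288) and without shD3 #1 replicate 2 (0.193). In shD3 #4, *NCAPD3* (0.0386) was lost in the fit of all 17 libraries (0.067), with no filter beyond 1 count (0.056), and without sh4Control replicate 2 (0.119), shD3 #4 replicate 2 (0.0678) or shD3 #4 replicate 3 (0.181). *MKI67* (0.0173) was lost there in the fit of all 17 libraries (0.236) and without sh4Control replicate 2 (0.0542), shD3 #4 replicate 1 (0.0512) or shD3 #4 replicate 3 (0.127). The other 8 genes in shD3 #4 kept an adjusted p-value under 0.05 in each of these fits.

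The median log2 fold change of the 10 was -1.26, -0.40, -2.38 and -0.58 in shD3 #1, shD3 #4, siD3 #3 and deep shD3 #1, where the median of all genes tested was -0.01, 0.01, 0.03 and -0.02. In shD3 #4 all 10 means were therefore below the control mean, and 9 of the 10 changes were smaller than the fold threshold. In bulk RNA, fewer cells in the phases that use these genes and less of their RNA per cell cannot be told apart.

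**Figure D1:**
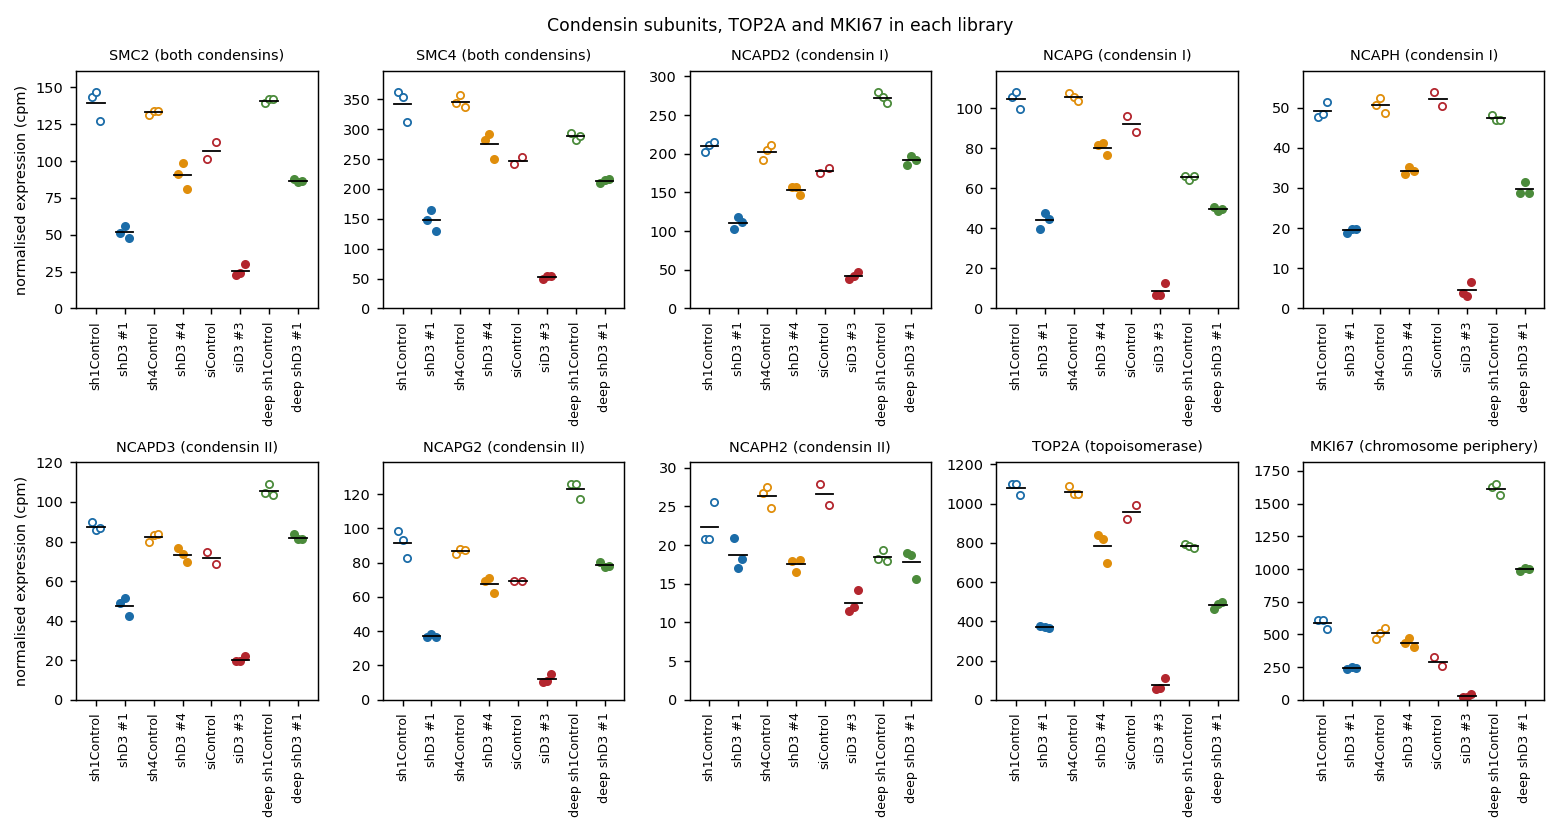
Normalised expression (cpm, linear axis from 0) of each gene in each of the 23 libraries, with open circles for controls, filled circles for knockdowns and a black line for the mean of a group. Each siD3 #3 library lies below each siControl library in all 10 panels, and the *NCAPH2* groups overlap in shD3 #1 and deep shD3 #1.

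The promoters carry short sequence elements known from cell cycle genes, and those of 5 members are printed to show where the letters lie. The searched motifs, on both strands, were TTTGAA and TTCGAA (forms of the cell cycle genes homology region, or CHR, an element bound by the DREAM and MuvB complexes), CCAAT (the box bound by NF-Y), and the E2F-like TTTCCCGC, TTTGGCGC and GGCGGGAA. Windows of 250 bases before to 50 bases after the start came from RefSeq on GRCh38.p14 and were found for 9 members, with 12 start sites. *NCAPH2* had no entry. TTTGAA was present for 8 of the 9 genes, in 8 of the 12 windows, where 18.2% of all 27305 genes and 15.2% of all 35116 windows held it. CCAAT was present for 5 of the 9, and in 39.7% of all genes and 34.6% of all windows. TTTCCCGC and GGCGGGAA occurred in 1 member, *NCAPD3*, at overlapping places, and in 1.6% and 3.2% of all windows. TTCGAA and TTTGGCGC were not in these member windows and were in 1.4% and 0.7% of all windows. In the sequences below, capitals mark the CHR letters TTTGAA, which read TTCAAA on the other strand, or the CCAAT box, which reads ATTGG there, and position 1 would be the first transcribed base, with -1 just before it.
TOP2A, chr17:40417887-40418096, minus strand: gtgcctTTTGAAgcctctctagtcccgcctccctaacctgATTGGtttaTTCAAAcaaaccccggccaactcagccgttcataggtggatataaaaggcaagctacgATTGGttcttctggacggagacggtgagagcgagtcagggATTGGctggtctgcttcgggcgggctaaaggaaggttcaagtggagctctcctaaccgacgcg
MKI67, chr10:128126414-128126573, minus strand: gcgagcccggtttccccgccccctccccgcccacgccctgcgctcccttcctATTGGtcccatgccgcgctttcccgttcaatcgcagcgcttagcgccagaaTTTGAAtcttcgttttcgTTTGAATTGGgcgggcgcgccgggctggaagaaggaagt
NCAPG, chr4:17810829-17810988, plus strand: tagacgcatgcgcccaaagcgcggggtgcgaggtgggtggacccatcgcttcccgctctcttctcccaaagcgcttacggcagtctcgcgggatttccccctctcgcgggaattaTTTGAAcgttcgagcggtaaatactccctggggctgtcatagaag
NCAPD2, chr12:6493952-6494111, plus strand: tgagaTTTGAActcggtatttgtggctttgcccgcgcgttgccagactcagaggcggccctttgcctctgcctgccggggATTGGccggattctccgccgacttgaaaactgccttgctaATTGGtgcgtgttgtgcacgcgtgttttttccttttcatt
NCAPH, chr2:96335616-96335775, plus strand: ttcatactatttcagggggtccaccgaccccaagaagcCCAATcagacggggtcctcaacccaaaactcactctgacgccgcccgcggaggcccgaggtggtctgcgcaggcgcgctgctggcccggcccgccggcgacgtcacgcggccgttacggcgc
*TOP2A* holds TTTGAA letters at -194 and, reversed, at -151, with 3 reversed CCAAT boxes in the printed stretch. *MKI67* holds them at -47 and -29, where the second shares a base with a reversed CCAAT box at -24. *NCAPG* has a single match at -35 and no CCAAT, and *NCAPD2* a single match at -145. *NCAPH* is the member with an entry but no TTTGAA, and it has 1 CCAAT at -112. These are matches of letters in a window, and no binding was measured.

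*SMC2* (chr9:104088263-104141419) and *SMC4* (chr3:160399650-160434953) encode the ATPase arms that both condensins use. Levels of *SMC2* were 143, 147 and 127 cpm in sh1Control and 51.3, 55.7 and 48.0 cpm in shD3 #1. In sh4Control they were 131, 134 and 134 cpm, and in shD3 #4 they were 91.0, 98.8 and 81.4 cpm. In siControl they were 101 and 113 cpm, and in siD3 #3 they were 22.6, 24.1 and 29.9 cpm. No control and knockdown libraries overlapped, and the log2 fold changes were -1.42 ± 0.07, -0.56 ± 0.07 and -2.07 ± 0.13 (standard errors throughout). In the deep libraries *SMC2* was at 139, 142 and 142 cpm in sh1Control and 88.1, 85.7 and 86.7 cpm in shD3 #1, a log2 fold change of -0.70 ± 0.04.

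*SMC4* was at 362, 353 and 312 cpm in sh1Control and at 149, 164 and 129.8 cpm in shD3 #1. With shD3 #4 it stood at 282, 293 and 250.1 cpm, where sh4Control had 343, 357 and 338 cpm. The siRNA left 49.9, 54.2 and 53.6 cpm, where siControl had 242 and 253 cpm. The groups did not overlap in any of these, with log2 fold changes of -1.21 ± 0.08, -0.33 ± 0.07 and -2.24 ± 0.09. The deep levels were 294, 283 and 288 cpm in controls and 209.6, 214 and 217 cpm in shD3 #1, a log2 fold change of -0.43 ± 0.04, which was not past the fold threshold. The exons of *SMC4* overlap those of *TRIM59* on the other strand over 19.0% of their bases, and which strand setting was used in counting is not given in the sources used here.

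Among the condensin I subunits, *NCAPD2* (chr12:6494102-6531955) encodes the HEAT-repeat subunit CAP-D2. It was at 202, 211 and 216 cpm in sh1Control and at 102, 118 and 112 cpm in shD3 #1. In sh4Control it was at 192, 205 and 211 cpm, and in shD3 #4 at 157, 157 and 146 cpm. In siControl it was at 175 and 181 cpm, and in siD3 #3 at 38.2, 41.9 and 46.9 cpm. Knockdown and control libraries were apart throughout, with log2 fold changes of -0.92 ± 0.07, -0.40 ± 0.06 and -2.07 ± 0.10. The deep controls had 279.6, 273 and 265 cpm and deep shD3 #1 had 186, 197 and 192 cpm. They were apart too, at 70.4% of the control mean and a log2 fold change of -0.51 ± 0.04.

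*NCAPG* (chr4:17810979-17844865), which encodes the second HEAT-repeat subunit, CAP-G, was among the genes that fell most with the siRNA. Its levels were 96.2 and 88.1 cpm in siControl and 6.56, 6.80 and 12.7 cpm in siD3 #3. They were 106, 108 and 99.5 cpm in sh1Control and 39.8, 47.5 and 44.6 cpm in shD3 #1. They were 108, 106 and 104 cpm in sh4Control and 81.8, 82.4 and 76.7 cpm in shD3 #4. Groups did not overlap, and the log2 fold changes were -3.40 ± 0.25, -1.25 ± 0.07 and -0.40 ± 0.06 in that order. Deep levels were 66.3, 64.3 and 66.1 cpm in controls and 50.8, 48.7 and 49.7 cpm in shD3 #1, a log2 fold change of -0.40 ± 0.05, again without overlap. Its level is uncertain, as 33.7% of its exonic bases overlap *LCORL* on the other strand.

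*NCAPH* (chr2:96335766-96377091) encodes the kleisin CAP-H, which closes the condensin I ring. It was at 53.8 and 50.4 cpm in siControl and at 3.82, 3.20 and 6.57 cpm in siD3 #3. With shD3 #1 it was at 18.8, 19.7 and 19.8 cpm, where sh1Control had 47.6, 48.4 and 51.4 cpm. With shD3 #4 it was at 33.5, 35.1 and 34.2 cpm, where sh4Control had 50.7, 52.3 and 48.6 cpm. The siRNA thus left 8.69% of the control mean, shD3 #1 39.5% and shD3 #4 67.8%, without overlap. The log2 fold changes were -3.52 ± 0.25, -1.34 ± 0.07 and -0.56 ± 0.07. From 48.1, 46.9 and 47.0 cpm in its controls, deep shD3 #1 went to 28.8, 31.5 and 28.8 cpm, a log2 fold change of -0.67 ± 0.05.

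The condensin II subunits gave a more mixed picture. *NCAPD3* (chr11:134150113-134225461), the CAP-D3 subunit, was at 89.8, 85.7 and 87.1 cpm in sh1Control and at 49.0, 51.5 and 42.5 cpm in shD3 #1. Its change in shD3 #4 was small, from 79.98, 83.3 and 83.6 cpm in sh4Control to 76.6, 73.8 and 69.5 cpm. In siD3 #3 it was at 19.4, 19.4 and 22.0 cpm, against 74.7 and 68.7 cpm in siControl. The groups were apart in all 3, with log2 fold changes of -0.87 ± 0.07, -0.17 ± 0.06 and -1.82 ± 0.10. Deep controls were at 104, 109 and 103 cpm and deep shD3 #1 at 83.8, 81.2 and 81.1 cpm, likewise apart, with a log2 fold change of -0.37 ± 0.04.

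*NCAPG2* (chr7:158631169-158704804), which encodes CAP-G2, moved more than *NCAPD3*. It was at 98.3, 93.2 and 82.6 cpm in sh1Control and at 36.5, 38.5 and 36.6 cpm in shD3 #1. It was at 85.2, 87.8 and 87.6 cpm in sh4Control and at 69.3, 71.1 and 62.3 cpm in shD3 #4. It was at 69.4 and 69.5 cpm in siControl and at 10.1, 11.1 and 14.9 cpm in siD3 #3. These are log2 fold changes of -1.29 ± 0.08, -0.36 ± 0.07 and -2.53 ± 0.16 without overlap of groups. For the deep libraries the levels were 126, 126 and 117 cpm in controls and 80.4, 77.6 and 78.0 cpm in shD3 #1, a log2 fold change of -0.64 ± 0.05, which was called.

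*NCAPH2* (chr22:50508224-50524780), the kleisin CAP-H2 of condensin II, departed from the others. In shD3 #1 it was at 20.9, 17.1 and 18.2 cpm, against 20.8, 20.8 and 25.6 cpm in sh1Control. In shD3 #4 it was at 17.9, 16.6 and 18.0 cpm, against 26.8, 27.5 and 24.8 cpm in sh4Control. In siD3 #3 it was at 11.4, 11.9 and 14.2 cpm, against 27.9 and 25.2 cpm in siControl. The shD3 #1 groups overlapped, while the other two pairs of groups did not. The log2 fold changes were -0.26 ± 0.10, -0.59 ± 0.08 and -1.09 ± 0.13, with edgeR adjusted p-values of 0.0404, 1.06e-06 and 0.00078. In the deep set the levels were 18.1, 19.4 and 17.9 cpm in controls and 19.0, 18.7 and 15.6 cpm in shD3 #1, which overlapped, and the log2 fold change was -0.06 ± 0.08 (edgeR adjusted p = 0.497). In shD3 #1 the value moved to -0.14 without sh1Control replicate 3 (adjusted p = 0.288) and to -0.18 without shD3 #1 replicate 2 (0.193), and DESeq2 gave -0.25 (0.135). Its call in shD3 #4 rested on single libraries, since without sh4Control replicate 2 or without shD3 #4 replicate 2 the log2 fold change was -0.56, short of the threshold. *NCAPH2* had the lowest counts of the 10 among the controls, and 19.2% of its exonic bases are shared with an unnamed gene on its own strand. A share of 19.2% also overlaps *SCO2* on the other strand, so its level is uncertain as well.

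*TOP2A* (chr17:40388525-40417896), whose promoter is printed above, had the highest level per kilobase and the largest fall in siD3 #3 and in shD3 #1 among the 10. It was at 921 and 995 cpm in siControl and at 55.8, 58.1 and 109.5 cpm in siD3 #3. It was at 1097, 1102 and 1044 cpm in sh1Control and at 377, 371 and 364 cpm in shD3 #1. It was at 1088, 1049 and 1046 cpm in sh4Control and at 838, 819.8 and 695 cpm in shD3 #4. The knockdowns kept 7.77%, 34.3% and 73.9% of the control mean, with no overlap, and the log2 fold changes were -3.69 ± 0.28, -1.54 ± 0.06 and -0.44 ± 0.07. In the deep set it was at 791, 785 and 773 cpm in controls and 463, 489 and 498 cpm in shD3 #1, a log2 fold change of -0.70 ± 0.04.

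*MKI67* (chr10:128096659-128126423) was at 324 and 259 cpm in siControl and at 21.3, 24.2 and 40.5 cpm in siD3 #3. With shD3 #1 it was at 238, 253 and 241 cpm, where sh1Control had 613, 609 and 541 cpm. With shD3 #4 it was at 433, 471 and 403 cpm, and sh4Control had 464, 512 and 548 cpm. The shD3 #4 groups overlapped and the others did not. The log2 fold changes were -3.34 ± 0.26, -1.27 ± 0.06 and -0.22 ± 0.07. In the deep set, *MKI67* was at 1625, 1654 and 1566 cpm in controls and at 982, 1009 and 998 cpm in shD3 #1, without overlap and with a log2 fold change of -0.70 ± 0.04. The 2 gene tables were counted separately and list different gene sets, so levels were not compared across them.

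Replicate 3 of siD3 #3 had the highest level of its group in 9 of the 10 genes, all but *SMC4*. Its *TOP2A* level of 109.5 cpm lay well above the 55.8 and 58.1 cpm of the other two, although its *THUMPD3* level was the lowest of the group. Without it, all 10 genes were still called lower. The log2 fold changes then ran from -4.08 for *TOP2A* to -1.20 for *NCAPH2*, and *NCAPG*, *NCAPH* and *MKI67* stood at -3.80, -3.89 and -3.69. The shares of mitochondrially encoded reads were 29.8% to 36.5% in siD3 #3 and 24.8% to 27.3% in siControl. With the mitochondrial genes left out, all 10 were called lower as well.

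**Figure D2:**
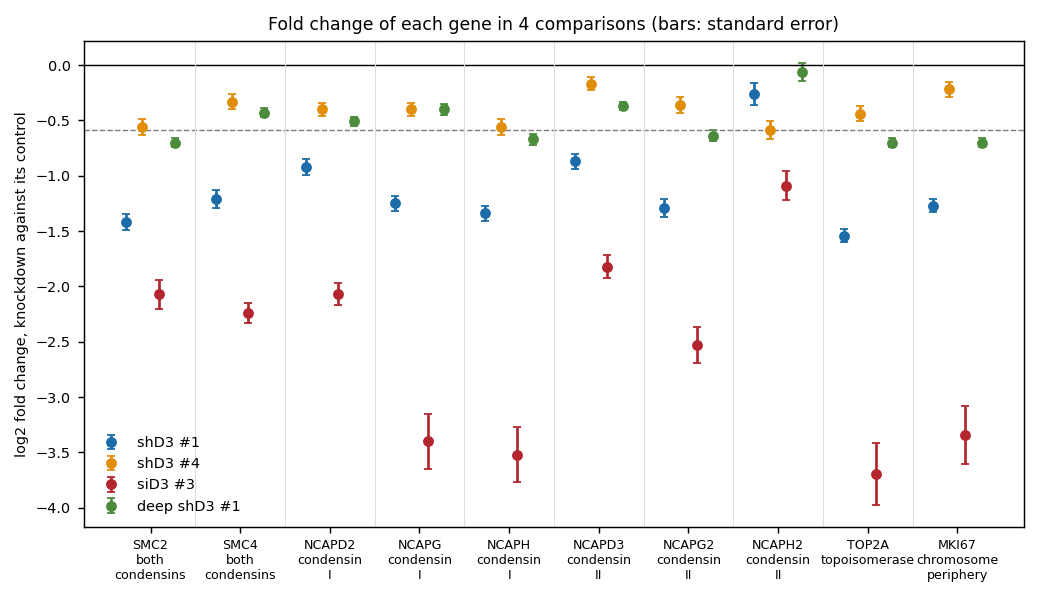
Log2 fold change of each gene in each knockdown against its own control (points) with its standard error (bars), where the dashed line marks the threshold of a 1.5-fold fall. The siD3 #3 points lie lowest for every gene, and *NCAPH2* is the gene where shD3 #4 lies below shD3 #1.

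The size of the falls differed between the knockdowns. In 1 model of the 17 first libraries, shD3 #1 was lower than shD3 #4 for 9 of the 10 genes at an edgeR adjusted p-value under 0.05, against 19.8% of 18672 genes. The differences ran from -1.11 ± 0.22 for *TOP2A* and -1.05 ± 0.20 for *MKI67* to -0.52 ± 0.11 for *NCAPD2* on the log2 scale. *NCAPH2* had the opposite sign, 0.33 ± 0.15, with an adjusted p of 0.0782, and with the replicate block that value was 0.34 with an adjusted p of 0.0382. The order of the 2 shRNAs was not that of *THUMPD3*, of which shD3 #1 kept 51.3% and shD3 #4 31.4%. The deep set of shD3 #1, with 49.6% of *THUMPD3* left, is not in this model. Its median log2 fold change over the 10 genes was -0.58, against -1.26 in the first set and -0.40 in shD3 #4. The differences between the 2 shRNAs thus hold for the first set of shD3 #1 and were not tested for the deep set. The siRNA effect was below the mean of both shRNA effects for all 10 genes, against 14.6% of genes. These differences were -2.68 ± 0.21 for *TOP2A*, -2.59 ± 0.20 for *MKI67*, -2.57 ± 0.18 for *NCAPG* and -2.55 ± 0.17 for *NCAPH*, and the smallest was -0.65 ± 0.14 for *NCAPH2*. The siRNA also left less *THUMPD3*, 17.1% of the control mean. The delivery method, the harvest day, the control and the depth of the knockdown differ together between siRNA and shRNA, and cannot be told apart.

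The condensin I specific subunits were then set against their condensin II counterparts within each library, as the mean log2 cpm of *NCAPD2*, *NCAPG* and *NCAPH* minus that of *NCAPD3*, *NCAPG2* and *NCAPH2*. This log2 ratio was 0.88 and 0.91 in siControl and -0.40, -0.49 and -0.08 in siD3 #3. In sh1Control it was 0.82, 0.91 and 0.86, and in shD3 #1 it was 0.34, 0.57 and 0.60. In sh4Control it was 0.84, 0.83 and 0.85, and in shD3 #4 it was 0.72, 0.79 and 0.76. The mean ratio was thus lower in each knockdown, with no overlap of groups. It changed by -1.22 with siD3 #3 (pooled SD 0.17), -0.36 with shD3 #1 (pooled SD 0.10) and -0.08 with shD3 #4 (pooled SD 0.02). In each shRNA comparison of the first libraries the change rested on a single pair of subunits, as given below. In deep shD3 #1 the ratio was 0.36, 0.45 and 0.49, against 0.63, 0.54 and 0.64 in its controls. These are descriptions of 6 chosen genes, and no test was run on the ratio.

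The pairs did not move alike. *NCAPH* to *NCAPH2* carried most of the change, with a mean log2 ratio in siControl of 0.97 ± 0.04 (SD, n = 2), which in siD3 #3 became -1.51 ± 0.38 (SD, n = 3). In sh1Control and shD3 #1 the same ratio was 1.14 ± 0.12 and 0.06 ± 0.18 (SD, n = 3 each). In shD3 #4 it was 0.97 ± 0.10, against 0.94 ± 0.03 in sh4Control (SD, n = 3 each), and the groups overlapped. *NCAPG* to *NCAPG2* changed from 0.41 ± 0.09 in siControl to -0.52 ± 0.25 in siD3 #3, and its groups overlapped in both first shRNA comparisons. In the deep set this ratio moved the other way, from -0.91 ± 0.07 to -0.66 ± 0.01, without overlap. *NCAPD2* to *NCAPD3* was the pair with the change in shD3 #4, from 1.30 ± 0.03 in sh4Control to 1.06 ± 0.03. This ratio also changed by -0.26 in siD3 #3 and by -0.14 in deep shD3 #1, without overlap. In the first shD3 #1 set its change was -0.04 and the groups overlapped. Without *NCAPH* and *NCAPH2*, the change of the mean ratio was -0.59 in siD3 #3, -0.0002 in shD3 #1, -0.13 in shD3 #4 and 0.0522 in deep shD3 #1. The lower mean ratio in both shD3 #1 sets thus rested on that pair. In the deep set the other pairs moved in opposite directions. Without *NCAPD2* and *NCAPD3*, the change in shD3 #4 was -0.0009.

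**Figure D3:**
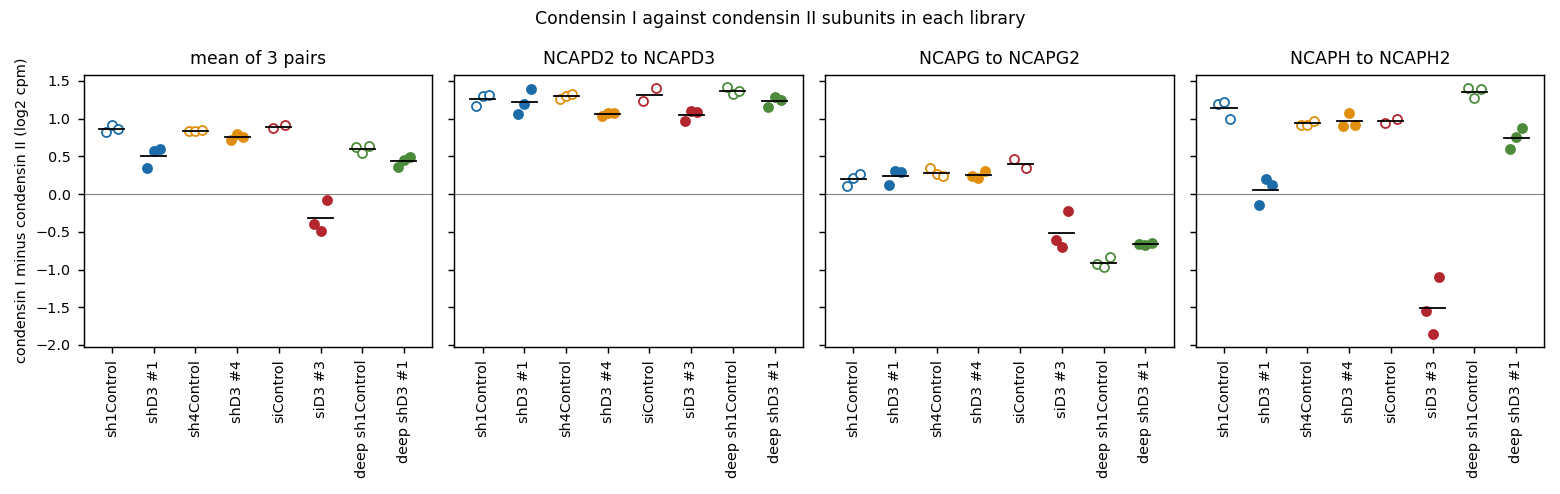
Log2 ratio of condensin I to condensin II subunits in each library (points) and the mean of its group (line), for the mean of the 3 pairs and for each pair. The siD3 #3 libraries lie below siControl in all 4 panels. The deep libraries come from another gene table, so their levels are not comparable with those of the first ones.

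Other factors that act on mitotic chromosomes were read in the same fits, where 9.42% of all genes tested were called lower in siD3 #3, 14.6% in shD3 #1, 4.49% in shD3 #4 and 14.1% in deep shD3 #1. The chromosomal passenger complex and the mitotic kinases, which phosphorylate chromatin and kinetochores, were called lower in 13 of 13 genes in siD3 #3 and in 13 of 13 in shD3 #1. In siD3 #3 the median log2 fold change was -3.25, with *AURKB*, the kinase of the complex, lowest at -3.70. In shD3 #1 the median was -0.95 with *AURKB* at -1.56. For shD3 #4 the count was 5 of 13, with *CCNB1*, the mitotic cyclin B1, lowest at -0.78, and for deep shD3 #1 it was 4 of 13, with *AURKB* lowest at -1.03.

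The cohesin ring and its regulators, which hold sister chromatids together, were called lower in 10 of 17 genes in shD3 #1, 8 in siD3 #3, 3 in shD3 #4 and 2 in deep shD3 #1. Over all genes the shares were 14.6%, 9.42%, 4.49% and 14.1%, and the deep count was no higher than its share. The lowest called were *ESCO2*, an acetyltransferase that sets cohesion in S phase, at -3.69 in siD3 #3, *ESPL1*, which encodes separase, at -1.35 in shD3 #1 and -1.0 in deep shD3 #1, and *PTTG1*, which encodes securin, at -0.89 in shD3 #4. The list medians were -0.58, -0.77, -0.34 and -0.20 in siD3 #3, shD3 #1, deep shD3 #1 and shD3 #4. Each of these medians lay nearer to 0 than that of the 10 genes, a difference that was not tested.

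The SMC5/6 complex, the third of the SMC family and a DNA repair complex, was called lower in 3 of 8 genes in siD3 #3, with *SLF1* lowest at -1.56, and in 3 of 8 in shD3 #1, with *NSMCE4A* lowest at -0.72. No gene of it was called in shD3 #4 or in the deep set, where 7 were tested. All genes had shares of 9.42% and 14.6% in siD3 #3 and shD3 #1. Of the 5 other topoisomerases, 1 was called lower, *TOP3A* in siD3 #3 at -0.62, and none in the shRNA comparisons. *TOP3A* was just short of the fold threshold in shD3 #1 (-0.55) and deep shD3 #1 (-0.58), and was at -0.13 in shD3 #4. *TOP2B*, the isoform of *TOP2A* that non-dividing cells also use, had log2 fold changes of -0.22 in siD3 #3, -0.04 in shD3 #1, 0.00 in shD3 #4 and 0.08 in the deep set. Of 13 other condensation and periphery factors, 5 were called lower in siD3 #3 and in shD3 #1, 4 in deep shD3 #1 and 2 in shD3 #4, beside shares of 9.42%, 14.6%, 14.1% and 4.49% over all genes. *KIF4A*, a chromokinesin of the chromosome axis, was the lowest of them at -3.48, -1.93 and -1.09 in siD3 #3, shD3 #1 and deep shD3 #1. No gene of these 5 lists was called higher.

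**Figure D4:**
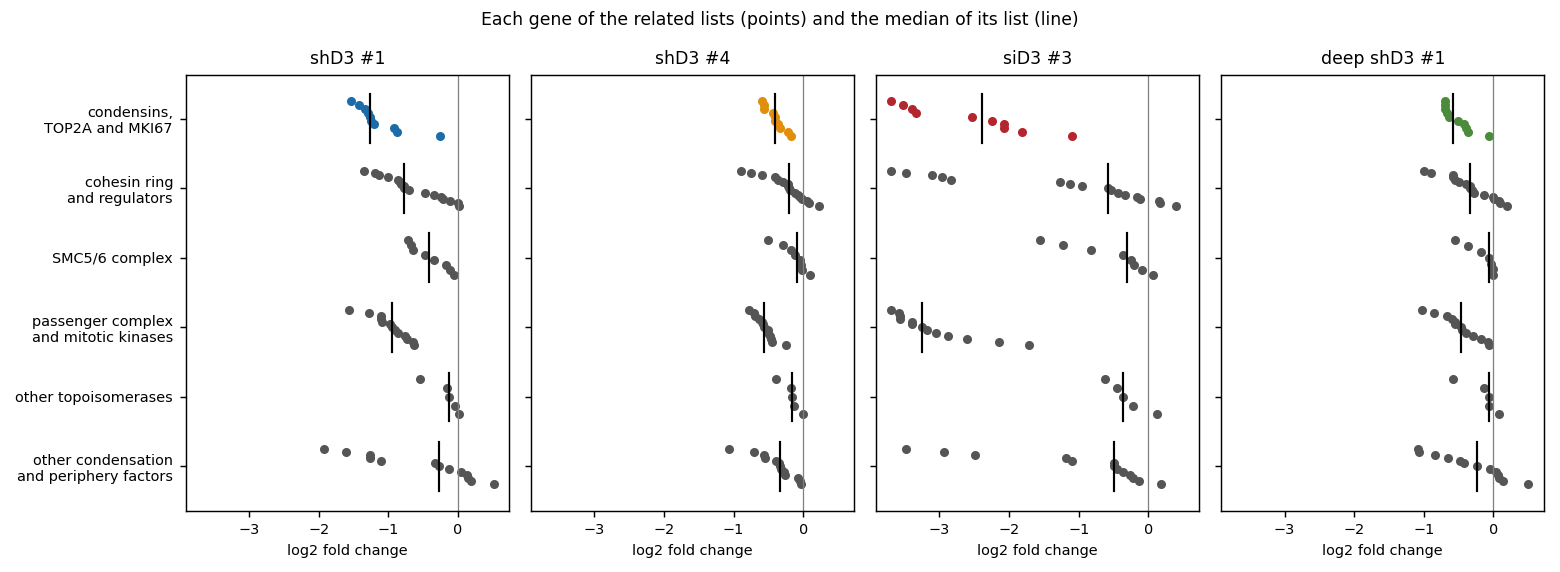
Log2 fold change of each gene (points) and median (vertical line) of the 10 genes and of 5 related lists, on 1 shared axis in the 4 comparisons. The median of the passenger complex and mitotic kinases is -3.25 in siD3 #3 and -0.95 in shD3 #1. That of the 10 genes is -2.38 and -1.26 there. The medians of the other topoisomerases lie between -0.37 and -0.07.

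Over the 17 first libraries, with log2 cpm centred on the mean of each library's own controls, the genes nearest to each member among 15648 were found by the root mean square difference. *TOP2A* was nearest to *AURKB* (0.08), *NUF2* (0.10) and *KIF15* (0.12), a kinase, a kinetochore protein and a spindle motor. *MKI67* was nearest to *ASPM* (0.09), *CIT* (0.13) and *BUB1B* (0.14), and *NCAPG* to *ASPM*, *KIF11* and *BLM* (0.11 each). *NCAPH* was nearest to *ANLN* (0.10), *KIF14* (0.12) and *MYBL2* (0.13). Among the condensin II subunits the nearest were *POLA1* (0.10), *TIMELESS* (0.12) and *CDC7* (0.12) for *NCAPD3*, *MCM4* (0.10), *KNTC1* (0.12) and *KIF22* (0.12) for *NCAPG2*, and *PFAS* (0.11), *CDCA4* (0.12) and *NPM3* (0.12) for *NCAPH2*. *NCAPD2* was nearest to *ECT2* (0.10), *DBF4B* (0.11) and *MCM8* (0.11). *SMC2* was nearest to *STMN1* (0.14), *ANP32E* (0.15) and *INCENP* (0.17), and *SMC4* to *C1orf112* (0.13), *TMPO* (0.14) and *INCENP* (0.14).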

How the data were processed

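RNA-sequencing of rRNA-depleted total RNA was analysed in 23 libraries. Per the paper's methods and the submitters' processing notes, reads were trimmed with Trimmomatic 0.40 and aligned to GRCh38.p14 with STAR 2.7.10a, which also counted reads per gene. The deposited values are raw counts per gene in 2 tables, without normalisation by the authors. The methods name a RefSeq annotation, whereas the first table lists versioned Ensembl identifiers, and the symbols were taken from GENCODE 44. No column was left unmapped. The strand setting and the treatment of reads from overlapping genes are not given in the sources used here.

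Knockdowns were tested against their controls by the quasi-likelihood test of edgeR 4.0.16 in R 4.3.3, after TMM normalisation and the filter that filterByExpr applies by default. Calls were made at a p-value adjusted after Benjamini and Hochberg of under 0.05 with a change of 1.5-fold or more. All 10 members passed the filter in every comparison. Differences between knockdowns were contrasts in 1 model of the 17 first libraries. Log2 ratios used a prior count of 2. The SE is that of the log2 fold change and the SD is between libraries. Depth ran from 9854294 to 59974740 counts, and the lowest count of any member was 56, for *NCAPH* in siD3 #3. The code was tested on simulated data. Gene positions and promoters came from RefSeq on GRCh38.p14 and exon lengths and overlaps from GENCODE 44. Python 3.11.15, pandas 2.3.3, scipy 1.17.1 and matplotlib 3.10.9 were used for the tables, tests and figures.

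The members and lists were chosen with earlier results of these data known. Besides the members and *THUMPD3*, the genes named were the called gene with the lowest and with the highest log2 fold change of each list in each comparison and the 3 nearest genes of each member. The lowest called gene of 1 list in shD3 #4 is not reported here. *TOP2B* and, in the closing observations, *CDCA5*, *SGO1*, *SMC1A*, *SMC3*, *RAD21*, *NIPBL* and *MAU2* were named after their values were seen. Alternatives were DESeq2 1.42.0, its size factors in edgeR, 2 filters, each library left out, the replicate block, removal of 37 mitochondrial genes, 2 call rules, 1 fit of 17 libraries, a prior count of 0.5 and each subunit pair left out.

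Same-numbered control and knockdown libraries correlated in their deviations from the group means between -0.108 and 0.142, so that the numbers were not taken to pair the samples.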

Additional observations from a re-analysis of the deposited data

Results flagged for a closer look

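Effects that differed between knockdowns at an adjusted p-value under 0.05 (edgeR) were found in 19 of 20 tests, 10 genes by 2 contrasts. All 19 differences were negative. Over all 18672 genes, 19.8% had a negative difference at that threshold for shD3 #1 minus shD3 #4. The share was 14.6% for siD3 #3 minus the mean of both shRNAs. The 20 tests come from the same model and share libraries, so they are not separate results. For shD3 #1 minus shD3 #4, the log2 differences were -0.87 for *SMC2*, -0.88 for *SMC4*, -0.52 for *NCAPD2*, -0.85 for *NCAPG*, -0.78 for *NCAPH*, -0.71 for *NCAPD3*, -0.93 for *NCAPG2*, -1.11 for *TOP2A* and -1.05 for *MKI67*. For siD3 #3 minus the mean of both shRNAs, they were -1.06 for *SMC2*, -1.45 for *SMC4*, -1.40 for *NCAPD2*, -2.57 for *NCAPG*, -2.55 for *NCAPH*, -1.29 for *NCAPD3*, -1.68 for *NCAPG2*, -0.65 for *NCAPH2*, -2.68 for *TOP2A* and -2.59 for *MKI67*. No group held enough libraries for a test of single outlying values.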

How the results depend on the processing

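The counts of members called lower stayed at 9 in shD3 #1 and at 10 in siD3 #3 under DESeq2, both filters, the other scalings and each library left out, and the log2 threshold of 1 gave 7 and 10. In shD3 #4 the count of 1 became 10 by the adjusted p-value alone and 0 at a log2 threshold of 1, and it ran from 0 (without sh4Control replicate 2) to 2 (without sh4Control replicate 3, where *NCAPH* was also called) as each library was left out. Without shD3 #4 replicate 2 the gene called was *SMC2*, at -0.63, in place of *NCAPH2*. In deep shD3 #1 the count of 5 became 9 and 0 under the same rules. By the adjusted p-value alone, 20.8% of all genes were lower in shD3 #4 and 31.5% in deep shD3 #1. Shares over all genes at the log2 threshold of 1 were not counted, so the counts at that threshold have no background beside them. With the replicate block the counts were 9, 1, 10 and 5, as without it, and the only changed call was that of *NCAPH2* in shD3 #1 minus shD3 #4 (0.34, adjusted p = 0.0382). That difference was also called without sh1Control replicate 3 (0.44), without shD3 #1 replicate 2 (0.40) and without siD3 #3 replicate 3 (0.33). *NCAPH2* in deep shD3 #1 ran from -0.12 to 0.03 as each library was left out, turning positive without shD3 #1 replicate 3. The change of the condensin I to condensin II ratio in shD3 #1 moved to -0.52 without *NCAPD2* and *NCAPD3*, -0.56 without *NCAPG* and *NCAPG2* and -0.0002 without *NCAPH* and *NCAPH2*. In shD3 #4 it moved to -0.0009 without the first pair and -0.13 without the last, in siD3 #3 to -1.70 and -0.59, and in deep shD3 #1 to -0.37 without *NCAPG* and *NCAPG2* and 0.0522 without *NCAPH* and *NCAPH2*. The cause was not tested.

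Calls near the fold threshold in shD3 #4 rest on small differences, and siControl has 2 libraries, so its spread is known least well.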

Other observations

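Within the cohesin list, genes named here after their values were seen fell unevenly in siD3 #3. *CDCA5*, which encodes sororin, *SGO1*, which encodes shugoshin, *ESPL1* and *PTTG1* had log2 fold changes of -2.97, -3.48, -3.10 and -2.83. The ring genes *SMC1A*, *SMC3* and *RAD21* had -1.13, -0.95 and -1.27. The loader genes *NIPBL* and *MAU2* had 0.39 and 0.17, and neither was called. In shD3 #1 the ring genes were at -1.0, -0.77 and -0.78, and *CDCA5*, *SGO1*, *ESPL1* and *PTTG1* at -0.82, -1.13, -1.35 and -0.83. The order of the genes was not kept in the other comparisons. In deep shD3 #1 the ring genes were at -0.58, -0.28 and -0.34, and the other genes at -0.5, -0.4, -1.0 and -0.9. For shD3 #4 the values were -0.07, -0.22 and -0.36, and -0.59, -0.75, -0.2 and -0.89.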
